A study of Mus musculus with 24 samples.

Results

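Ribosome-depleted RNA can be broken before it is copied, by heating the RNA (RNA hydrolysis), or after it is copied, by shearing double-stranded cDNA made from intact RNA (DNA shearing). The comparison of these fragmentation methods in CCE cells rests on 8 of the 24 samples of the series, the CCE RiboMinus libraries with a tag file, of which 4 carry the label RNA hydrolysis and 4 the label DNA shearing. Members were chosen by the fragmentation label, the cells and the depletion kit, not by any measured value. CCE cells are feeder-independent 129/SvEv mouse embryonic stem cells. Here they had been taken off LIF and kept in 0.266 µM retinoic acid for 5 days, which turns this line into cells that resemble primitive endoderm. All 8 libraries share this treatment, DNase I digestion and 1 round of RiboMinus depletion, so that the fragmentation step is the labelled difference between the groups. Preparations CCE1 and CCE2 were each hydrolysed and each sheared, and each cDNA was sequenced at Vienna-IMP and at Nijmegen. The 4 libraries of a group are therefore 2 cDNAs that were each sequenced at 2 locations, and n = 4 counts libraries. The preparations are technical replicates of the same cells, so no p value measures the spread of independent cultures. The limma p values take both sequencings of a cDNA as separate libraries. They therefore mix the spread of RNA handling, with 2 preparations per group, with that of sequencing. The preparation numbers come from the list of lanes in the study, and the protocol text of the sheared samples describes hydrolysis. The groups follow the fragmentation field of the labels. As a comparison, 6 RiboMinus libraries of fetal heads (FH) at 14.5 dpc were used, 4 hydrolysed after 1 or 2 rounds of depletion and 2 sheared after 1 round. The 2 sheared FH libraries are 1 preparation sequenced at 2 locations.

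Random hexamers prime cDNA synthesis in both methods. On a hydrolysed template each short RNA piece needs its own primer, and the fragment ends lie where primers annealed or where the RNA broke. On an intact template the polymerase can run on from a few primers, and the fragment ends are made later by mechanical breaks in DNA. Base composition, RNA folding and the distance from a transcript end are the properties known to interact with these steps and with the later PCR.

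The hydrolysed libraries held 1452794 to 2473448 uniquely aligned tags and the sheared libraries 1058045 to 1928324. A tag was assigned by its midpoint to the merged exons of GENCODE M1 genes on mm9, and RPKM scales these tags to the kb of merged exon and to the unique tags of the library. Between 9951 and 10159 genes reached 3 RPKM in a hydrolysed library and between 9214 and 9627 in a sheared library. Of 37273 annotated genes, 21266 had an exon tag and 10766 had a mean of at least 10 tags per library and were tested. Markers of extraembryonic endoderm, the type these cells are described to resemble, were present under either method, with a summed level of 1063 to 1352 RPKM in hydrolysed and 1404 to 1512 RPKM in sheared libraries. The summed pluripotency markers lay between 65.8 and 128.2 RPKM in hydrolysed and between 82.6 and 100.1 RPKM in sheared libraries. The mesodermal and muscle markers summed to 2199 to 2932 RPKM in hydrolysed and 1897 to 2568 RPKM in sheared libraries. Of these markers Mesp1 and Myod1 were at 0 in the 8 libraries, whereas Tagln, a smooth muscle actin-binding protein, reached 1867 RPKM. Acta2 and Cnn1 reached 1185 and 153 RPKM. The neural markers summed to 29.3 to 47.0 RPKM in hydrolysed and 31.7 to 44.0 RPKM in sheared libraries, with Dcx at most at 0.218 RPKM. In bulk RNA, a smaller share of cells of a type and less RNA per cell cannot be told apart.

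Gene levels were in most pairs more alike between libraries of the same method than between libraries of different methods. Over the 6402 genes that had 20 tags or more in every one of the 8 libraries, log2 levels correlated with Pearson r of 0.904 to 0.965 over 12 pairs of the same method and of 0.772 to 0.906 over 16 pairs of different methods. Sheared CCE1 and CCE2, each a single cDNA sequenced at both locations, had r of 0.964 and 0.965. Between sheared libraries of unlike number r was 0.910 to 0.925. Across locations, hydrolysed libraries of like number had r of 0.904 and 0.916, and those of unlike number 0.953 and 0.958. These values are across genes, which are not independent replicates. The SD of the log2 ratio between libraries ranged from 0.33 to 0.53 within a method and from 0.53 to 0.84 between methods.

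Of the 10766 genes tested, 2016 (18.7%) were higher and 1444 (13.4%) lower after hydrolysis than after shearing at an adjusted p under 0.05 (limma with voom weights and a term for the sequencing location, Benjamini-Hochberg adjustment). Among called genes the median log2 difference was 0.87 for those higher and -0.84 for those lower, and 703 and 430 of them differed over 2-fold. Over 4-fold differences were found for 22 genes that were higher and 16 that were lower. The 4 hydrolysed libraries lay entirely above the 4 sheared libraries for 2034 genes (18.9%) and entirely below them for 1330 genes (12.4%). With the total of all unique tags as library size, the median log2 difference of the genes tested was 0.10. With a median-of-ratios library size this median was 0.001, and the split became 1585 genes higher and 1873 lower.

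The number of genes that pass the threshold depended on how the replicates were treated. Without the sheared CCE2 library of Nijmegen 1159 genes were higher and 980 lower, and without the hydrolysed CCE2 library of Nijmegen 1432 were higher and 865 lower. Within Vienna-IMP no gene was called by limma (2302 had an unadjusted p under 0.05), and within Nijmegen 529 genes were higher and 560 lower. The log2 ratios of preparation 1 to preparation 2 correlated across genes with r of 0.638, 0.659 and 0.584 between the sheared libraries of both locations and the hydrolysed libraries of Nijmegen. Those of the hydrolysed libraries of Vienna-IMP correlated with the same ratios with r of -0.703, -0.680 and -0.689. The preparation numbers of the hydrolysed Vienna-IMP libraries thus run against the others, and the labels were kept. When the locations were summed per cDNA as labelled, 1494 genes were higher and 1035 lower, and with the hydrolysed numbers crossed no gene was called by limma, while 3295 had an unadjusted p under 0.05. With cDNA as a random effect under the crossed numbers, 915 genes were higher and 765 lower. When that crossed pairing was used as a block instead, 3293 genes were higher and 2437 lower. No gene called in the comparison of 4 against 4 changed sign in any of these summed or blocked fits. Those fits reuse the same tags in a balanced layout, so the kept signs are no separate evidence. Within Nijmegen 3 called genes changed sign, and with positions counted once 18 did.

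The difference between the methods fell with the GC content of the exons. Below 40% GC, 258 of 399 genes were higher after hydrolysis (64.7%) and 1 was lower, with a median log2 difference of 0.85. From 40 to 45% GC the median was 0.66, with 899 of 1876 genes higher and 10 lower, and from 45 to 50% it was 0.33, with 640 of 2795 higher and 55 lower. From 50 to 55% GC the median was -0.06, with 185 of 2950 genes higher and 288 lower. Above 55% GC, 34 of 2746 genes were higher and 1090 were lower (39.7%), with a median of -0.51. The medians therefore fell from bin to bin, while the share of genes called lower rose from under 1% of the AT-rich genes to 39.7% of the GC-rich genes, beside 13.4% of the genes tested. Across genes the log2 difference and the exon GC content had a Pearson r of -0.703 as a description. In the 4 single pairs of hydrolysed and sheared libraries with the same location and preparation number as labelled, r ranged from -0.454 to -0.701. At Vienna-IMP these pairs may join unlike preparations.

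**Figure D1:**
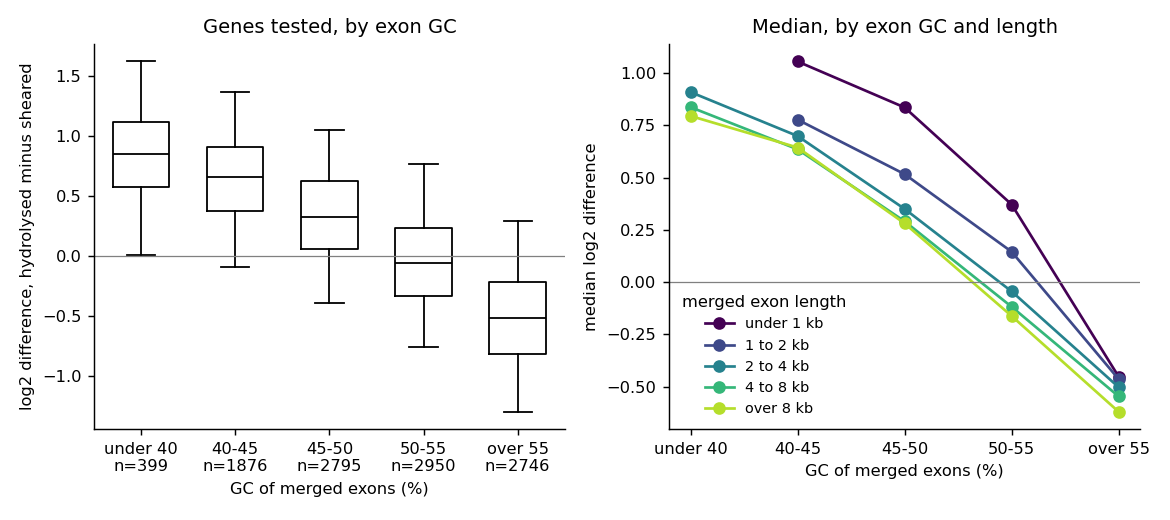
Left, log2 difference between hydrolysed and sheared CCE libraries of the 10766 genes tested by exon GC content, with boxes from the lower to the upper quartile and whiskers from the 5th to the 95th percentile. Right, median log2 difference in bins of exon GC content and merged exon length, where the medians fall from left to right in each length bin, above 55% GC to between -0.45 and -0.62.

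The medians differed less between bins of merged exon length than between bins of GC content. The median log2 difference was 0.07 for genes under 1 kb, 0.02 from 1 to 2 kb, 0.03 from 2 to 4 kb, 0.12 from 4 to 8 kb and 0.29 over 8 kb. Among the longest genes 369 of 1274 were higher (29.0%) and 70 lower (5.49%). Within bins of GC content the order turned round. From 45 to 50% GC the median was 0.84 for 92 genes under 1 kb and 0.28 for 443 genes over 8 kb, and from 50 to 55% GC it was 0.37 and -0.16. Above 55% GC the shortest and the longest genes had medians of -0.45 and -0.62. In these medians shorter genes at like GC content were thus further toward the hydrolysed libraries. Above 55% GC the medians were below 0 in each length bin. In single pairs of libraries the median of genes over 8 kb ranged from -0.44 to 0.32 at 50 to 55% GC. Above 55% GC it ranged from -1.01 to 0.06. The share of protein-coding exon tags overlapped between the methods in each length bin. Over 8 kb it was 13.8 to 17.6% after hydrolysis and 12.4 to 15.9% after shearing. Over quintiles of level, the share of genes called higher ranged from 15.7 to 22.2%, and the share called lower grew with the level. In the lowest quintile of mean RPKM 17.8% of 2153 genes were higher and 4.41% lower, with a median of 0.29. In the highest quintile 15.7% of 2154 genes were higher and 24.7% lower, with a median of -0.11, beside 18.7 and 13.4% of the genes tested. The median exon GC content rose with the level, from 47.4% in the lowest to 53.8% in the highest quintile. Relative to the median of the GC bin of each gene, the medians of the quintiles lay between -0.0089 and 0.0084.

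The 8 protein-coding genes with the greatest difference in each direction were chosen among called genes whose groups did not overlap. Those higher after hydrolysis include small subunits of widely expressed complexes, and 5 of those lower are histone genes of a single exon. Shfm1, a small acidic subunit of the proteasome lid on chromosome 6 (6508283 to 6528652), is 477 nt long and has 47.2% GC. It was at 364, 670, 939 and 620 RPKM in the hydrolysed libraries CCE1 and CCE2 of Vienna-IMP and CCE1 and CCE2 of Nijmegen, and at 115, 96.1, 144.6 and 75.1 RPKM in the sheared libraries in the same order. The groups did not overlap, and the log2 difference was 2.55 ± 0.27 (SE, adjusted p = 0.000237, limma).

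Vbp1, a subunit of the prefoldin chaperone on the X chromosome with 35.6% GC, was at 12.1, 18.1, 17.3 and 12.0 RPKM after hydrolysis and at 4.14, 2.87, 3.10 and 1.34 RPKM after shearing, in that order. Its lowest hydrolysed library was above its highest sheared library, with a log2 difference of 2.30 ± 0.33 (SE, limma, adjusted p = 0.0012). Cetn3, which encodes the centrosomal protein centrin 3, differed by 2.21 and Fundc2, a protein of the outer mitochondrial membrane, by 2.00 on the log2 scale. Cox6b1, a nuclear subunit of cytochrome c oxidase, ranged from 71.4 to 211 RPKM after hydrolysis and from 17.0 to 43.9 RPKM after shearing (log2 difference 1.86). Nop10, a protein of the H/ACA ribonucleoproteins that guide pseudouridylation, and Magoh, a core protein of the exon junction complex, differed by 1.86 and 1.83. 2610029G23Rik differed by 2.08 on the log2 scale. For each of these genes the 4 hydrolysed libraries were above the 4 sheared libraries, which the rule that chose them required.

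In the opposite direction Hist1h3i, a histone H3 gene of a single exon with 63.1% GC, was at 36.8, 44.2, 107.7 and 61.7 RPKM after hydrolysis and at 492, 177, 571 and 314 RPKM after shearing. The groups did not overlap, and the log2 difference was -2.62 ± 0.34 (SE, limma, adjusted p = 0.000694). Hist2h3b fell by 2.52, Hist1h3g by 2.50, Hist1h4j by 2.50 and Hist1h4i by 1.95 on the log2 scale. Genes outside the histone family were lower as well. Cilp2, which encodes a cartilage matrix protein and has 65.5% GC, was at 2.62, 2.55, 2.59 and 2.18 RPKM after hydrolysis and at 10.5, 9.21, 10.3 and 11.6 RPKM after shearing. The SDs were 0.207 and 0.989 RPKM (log2 difference -2.04 ± 0.20, SE, limma, adjusted p = 0.000233). As for the other genes named here, groups without overlap were a condition of the choice. Tmem158, a single-exon membrane protein gene, fell by 2.01 on the log2 scale, and Zfp771, a zinc finger gene with 66.9% GC, had a log2 difference of -1.98.

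**Figure D2:**
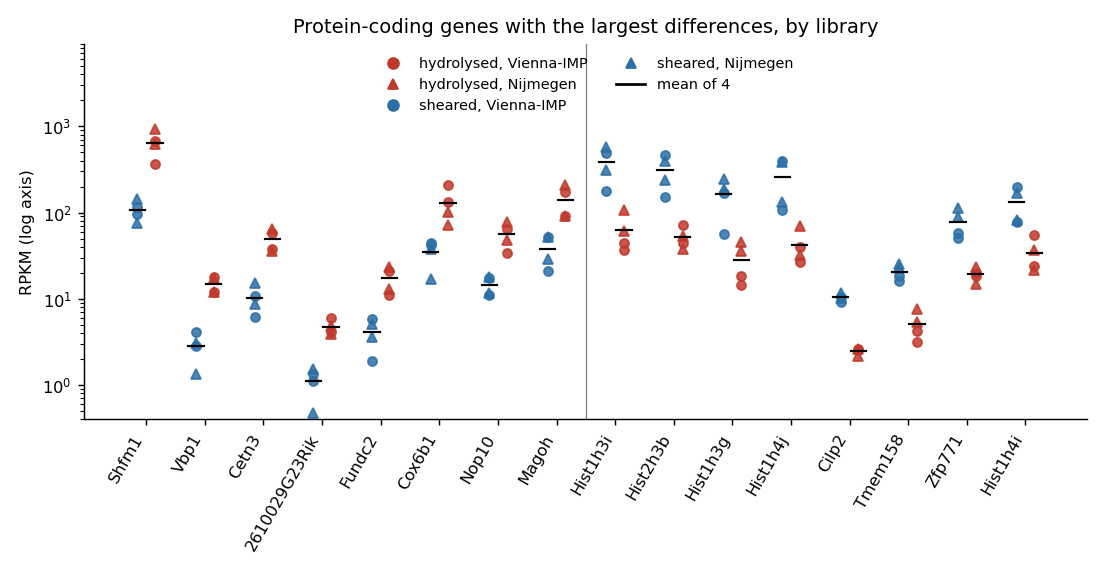
RPKM on a log axis of the 16 protein-coding genes with the greatest differences in each direction, with 1 point per CCE library and a bar at the mean of each group. The 4 hydrolysed and the 4 sheared points do not overlap for any of these genes, which the rule that chose them required.

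The tags of such genes were not spread evenly, and the most used fragment start of the hydrolysed libraries is printed for 4 of them to show what was counted. Each line gives 30 bases of the mm9 genome, read in the direction of the tag, with 10 bases before the fragment and its first 6 bases in capitals.
Shfm1, chr6:6510466-6510495, minus strand: ctggcttagaTGAAGAtgaagatgcacatg
Vbp1, chrX:72759671-72759700, plus strand: tctgaagatgGCGGCGgctaaggacggatg
Hist1h3i, chr13:21874813-21874842, plus strand: ttaacaggtaGGGGAAttacgccctctccc
Hist2h3b, chr3:96073033-96073062, minus strand: gagcctttgtGGGGGAtggaagggaaacag
The Shfm1 position began 110 of the 2140 exon tags in the hydrolysed libraries and 3 of the 289 in the sheared libraries. The Vbp1 position began 18 of 225 and 1 of 36 tags. These positions were picked for their use after hydrolysis. The most used sheared starts of Shfm1 and Vbp1 lay elsewhere and began 8 and 2 tags after shearing and 31 and 8 after hydrolysis. In Hist1h3i a single position, close to the 3′ end of the gene and on the strand opposite to it, began 47 of 211 tags after hydrolysis and 469 of 1074 tags after shearing. In Hist2h3b a position of the same kind began 82 of 180 and 525 of 905 tags. The fragments at both histone positions open with a run of G, and both positions were the most used start of their gene in either method. Tags with a shared start may be copies of 1 molecule. With each position counted once per library, the log2 difference was 1.198 for Shfm1 and -0.68 for Hist2h3b, which was then no longer called (adjusted p = 0.0745, limma).

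Replication-dependent histone genes, whose mRNAs end in a stem-loop and have no poly(A) tail, were called lower more often than other genes. Of 67 listed genes 52 were tested, and 33 were lower (63.5%) and 1 higher (1.92%), beside 13.4 and 18.7% of the genes tested, with a median log2 difference of -1.08 beside 0.10. The 10 histone H3 genes tested were called lower, with a median of -1.97 and a range from -2.62 to -1.33. The summed level of the list overlapped, at 3508 to 8311 RPKM after hydrolysis and 4825 to 13515 RPKM after shearing, and 19 genes were lower without the hydrolysed CCE2 library of Nijmegen. Of 13 H2A genes 10 were lower, of 13 H2B genes 7 were lower and 1 higher, of 11 H4 genes 5 were lower, and of 5 linker histone H1 genes 1 was lower. The H4 genes include members with little difference, among them Hist1h4d, at 539 to 1196 RPKM after hydrolysis and 416 to 1327 RPKM after shearing (log2 difference -0.16, adjusted p = 0.724, limma). The member called higher, Hist2h2bb, had a log2 difference of 0.82 that became -0.32 with each position counted once. Counting positions once left 26 histone genes lower and none higher, with a median of -0.77. The genes had a median GC content of 59.5%, and 49 of the 52 have a single exon. Relative to the median of their GC bin they remained lower, with a median of -0.84. Near-identical histone genes share sequence, and tags that align to several of them are absent from lists of unique tags.

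Genes of a single exon block were more often called lower than other genes, also without the listed histones. Of 276 protein-coding genes with 1 merged exon block 126 were lower (45.7%) and 19 higher (6.88%), with a median log2 difference of -0.64. Among the 9879 with more blocks 12.4% were lower and 19.1% higher, with a median of 0.11. Without the histone list, 94 of the 227 remaining genes of 1 block were lower (41.4%) and 19 higher (8.37%), with a median of -0.50. Above 55% GC the medians were -0.93 for 149 genes of 1 block, -0.88 for the 111 of them outside the histone list and -0.49 for 2418 genes of more blocks. Tags across splice junctions were not aligned under either method, so that short exons lose tags that single-exon genes keep. Whether this bears on the difference between the methods was not tested.

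Among components of the respiratory chain, of translation and of splicing more genes were called higher than lower, as among all genes tested, of which 18.7% were higher and 13.4% lower. Of 64 nuclear oxidative phosphorylation genes tested 19 were higher (29.7%) and 3 lower, with a median log2 difference of 0.42. Ndufa1, an accessory subunit of complex I with 47.5% GC, had a log2 difference of 1.87 (adjusted p = 0.0046, limma). Atp5k, a small subunit of ATP synthase, was higher by 1.95. Uqcrc1, a core subunit of complex III with 57.5% GC, was at 61.3 to 86.3 RPKM after hydrolysis and 134.8 to 173.9 RPKM after shearing and fell by 1.15.

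Of 53 translation factor genes 17 were higher (32.1%) and 1 lower, with a median of 0.40. Eif2s3x, the X-linked gamma subunit of eIF2, was at 6.68 to 9.75 RPKM after hydrolysis and at 1.80 to 3.97 RPKM after shearing, a log2 difference of 1.80. The gene called lower was Eef2, the translocase of elongation, at 261 to 533 RPKM after hydrolysis and 610 to 686 RPKM after shearing. Its groups did not overlap, and it fell by 0.75 on the log2 scale. Of 59 cytoplasmic ribosomal protein genes 12 were higher (20.3%), a share near that of the genes tested, and 3 lower (5.08%), with a median of 0.30. Their summed level was 1908 to 3367 RPKM after hydrolysis and 2306 to 3273 RPKM after shearing and overlapped, as did the sums of the other 3 lists. Many of these have processed copies elsewhere in the genome, and Rps4x, higher by 1.73, and Rps4y2, lower by 1.48, are near-identical genes whose tags cannot be split with certainty. Of 33 splicing factor genes 13 were higher (39.4%) and 3 lower, with a median of 0.32, and Srsf2, a serine/arginine-rich splicing factor, fell by 0.76. Relative to the median of the GC bin of each gene, the medians were 0.35 for oxidative phosphorylation and 0.16 for translation factors. They were 0.28 for ribosomal proteins and -0.016 for splicing factors. With positions counted once the medians of the oxidative phosphorylation, translation factor, ribosomal protein and splicing factor lists were 0.20, 0.10, 0.07 and 0.17, beside 0.01 for the genes tested. The calls were then 9 higher and 5 lower, 12 and 4, 6 and 5, and 9 and 4. Without the sheared CCE2 library of Nijmegen 10 oxidative phosphorylation, 3 ribosomal protein and 8 splicing factor genes were higher. For ribosomal protein genes this count was 7 without the sheared and 4 without the hydrolysed CCE2 library of Vienna-IMP, and 4 without the hydrolysed CCE1 library of Nijmegen.

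Immediate early genes, whose transcripts respond within minutes to stimuli, were lower or not called. Of 10 tested 5 were lower and none was higher, beside 13.4 and 18.7% of the genes tested, with a median log2 difference of -0.41. Relative to the median of their GC bin the median was -0.26. Of the 10 genes 4 have a single exon block, and outside the histone list 41.4% of such protein-coding genes were lower. Whether this bears on the immediate early genes was not tested. Jund, a subunit of the AP-1 transcription factor with 62.7% GC, was at 82.0, 65.5, 96.8 and 90.1 RPKM after hydrolysis and at 182, 235, 312 and 285 RPKM after shearing. The groups were well apart, and Jund fell by 1.58 ± 0.15 on the log2 scale (SE, limma, adjusted p = 0.000203). Junb fell by 1.29, Jun by 1.04 and Ier2 by 0.79, whereas Fos, with 52.0% GC, had a log2 difference of -0.12 (adjusted p = 0.809, limma). Without the sheared CCE1 or the hydrolysed CCE2 library of Nijmegen 3 of the 10 were lower.

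Some markers used to name these cells were among the genes called. Of 23 extraembryonic endoderm genes tested 3 were higher (13.04%) and 7 lower (30.4%), beside 18.7 and 13.4% of the genes tested, with a median of -0.41, and with a median-of-ratios library size 1 was higher and 8 lower. The median was -0.19 relative to the median of their GC bin. Sox17, a transcription factor of endoderm, was at 9.49, 8.07, 14.8 and 15.4 RPKM after hydrolysis and at 22.9, 29.1, 34.8 and 35.9 RPKM after shearing. The groups did not overlap, and Sox17 fell by 1.37 ± 0.17 (SE, limma, adjusted p = 0.00056). Its exons have a GC content of 50.2%. The transcription factors Gata6 and Foxa2 and the simple epithelial keratin Krt8 fell by 1.03, 0.83 and 1.12. Sparc, a secreted matrix protein, Cubn, an endocytic receptor, and Dab2, its adaptor, were higher by 0.62, 0.68 and 0.78. The abundant simple keratins Krt18 and Krt19 had log2 differences of -0.13 and -0.33 and were not called. A single gene of the list was higher without the CCE1 libraries of Vienna-IMP, sheared or hydrolysed, the sheared CCE1 or the hydrolysed CCE2 library of Nijmegen, each left out alone.

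Pou5f1, the core factor of pluripotency, was at 16.3, 20.1, 18.1 and 11.6 RPKM after hydrolysis and at 20.0, 18.96, 23.5 and 17.8 RPKM after shearing. The groups overlapped, and the log2 difference was -0.30 ± 0.20 (SE, limma, adjusted p = 0.267). Of 9 pluripotency genes tested Dppa5a was higher by 1.88, and Klf4 and Sox2 were lower by 0.94 and 0.71. Neither the 4 neural genes tested nor the 4 of mesoderm and muscle held a call by limma. With positions counted once 1 of the 4 neural genes and 3 of the 4 of mesoderm and muscle were called lower, among them Tagln at -0.60 and Acta2, smooth muscle actin, at -0.63 (adjusted p = 0.0176 and 0.00609, limma), whose differences are 0.10 and 0.25 with all tags. For abundant genes such a count is bounded by the number of positions, and the part of this in these calls was not tested. Of 18 collagen genes Col14a1 was higher and Col4a2, a chain of basement membrane collagen, was lower, with log2 differences of 0.80 and -0.74. Of 17 laminin and integrin genes 2 were higher (11.8%) and 4 lower (23.5%), beside 18.7 and 13.4% of the genes tested, and 1 or 2 were lower when any library other than the CCE1 libraries of Vienna-IMP was left out. They include Lama5, a laminin chain, which fell by 1.16, and Itgb1, the common beta 1 integrin, with a log2 difference of 0.64 that was -0.02 with positions counted once. The laminin and integrin list had a median of -0.29, and of -0.047 relative to the median of the GC bin. For the collagen list these medians were -0.21 and 0.19.

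Among the classes of the annotation small nucleolar RNAs, which guide modification of other RNAs, stood furthest from the rest. Of 32 tested 18 were higher (56.25%, beside 18.7% of the genes tested) and none was lower, with a median log2 difference of 1.51 beside 0.10 for 10155 protein-coding genes, of which 1906 were higher and 1348 lower. Their share of exon tags was 0.310 to 0.505% in hydrolysed and 0.136 to 0.275% in sheared libraries. The share did not overlap between the groups, with an exact permutation p of 0.0286, the smallest that 4 against 4 allows, and an adjusted p of 0.059 over 31 library measures. This test, here and for the other library measures, takes both sequencings of a cDNA as separate libraries. On the mean of both locations per cDNA, 2 against 2, no exact p can be below 0.333. The median relative to the genes tested was 1.41 in all libraries, 0.80 without the sheared CCE1 library of Vienna-IMP, 0.52 at Nijmegen alone and 0.59 with positions counted once. Of 15 listed by symbol 7 were higher and none lower with all tags, but 1 was higher and 1 lower with positions counted once.

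Scarna10, a small Cajal body RNA of 325 nt, was at 393, 519, 507 and 584 RPKM after hydrolysis and at 94.1, 155, 101.8 and 70.5 RPKM after shearing. The groups did not overlap, a condition of the choice of such genes, and the log2 difference was 2.28 ± 0.23 (SE, limma, adjusted p = 0.000233). U3, the RNA needed for the first cleavages of the ribosomal precursor, was at 215, 97.4, 301 and 602 RPKM against 22.0, 28.8, 35.7 and 30.4 RPKM. It was higher by 3.17 on the log2 scale in CCE, and by 0.62 in FH, where it was not called. Snord15a was higher by 2.50, but its hydrolysed libraries were at 994 and 1107 RPKM at Vienna-IMP and at 13.3 and 21.2 RPKM at Nijmegen, where the difference was -0.58. Most small nucleolar RNAs lie in introns of host genes, and tags without strand or full length cannot tell them from the host RNA.

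Most of the host genes of small nucleolar RNAs that were tested were called higher as well. Of 8 tested 7 were higher (87.5%, beside 18.7% of the genes tested) and none was lower, with a median log2 difference of 1.36. This median was 0.80 relative to the median of their GC bin. Snhg1 was at 54.6, 51.4, 25.7 and 21.8 RPKM after hydrolysis and at 13.02, 22.3, 9.62 and 4.62 RPKM after shearing. The groups overlapped in 1 pair of values across locations and were apart within each location, and the log2 difference was 1.73 ± 0.23 (SE, limma, adjusted p = 0.000751). Gas5 and Snhg5 were higher by 1.48 and 1.44, and Snhg9, the member with the highest GC content at 59.0%, had a log2 difference of -0.75 (adjusted p = 0.278, limma). When positions were counted once, 6 hosts were higher and none was lower.

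Of 9 long nuclear RNAs tested 5 were higher (55.6%, beside 18.7% of the genes tested) and none was lower, with a median log2 difference of 0.54, and 3 were higher with a median-of-ratios library size or without the hydrolysed CCE2 of Vienna-IMP, the hydrolysed CCE1 of Nijmegen or the sheared CCE2 of Nijmegen. Their median was 0.44 relative to the median of their GC bin. Malat1, an abundant RNA of nuclear speckles with 42.5% GC, was at 287, 230, 219 and 348 RPKM after hydrolysis and at 94.5, 118.9, 93.9 and 94.8 RPKM after shearing. The highest sheared library was well below the lowest hydrolysed library, with a log2 difference of 1.41 ± 0.18 (SE, limma, adjusted p = 0.000581). Neat1, the scaffold of paraspeckles, and Mir17hg were higher by 0.80 and 1.09. H19 and Mirg, imprinted non-coding RNAs, were higher by 0.54 and 0.51, and Meg3 had a log2 difference of 0.08. Airn, the macro non-coding RNA that silences Igf2r in cis, was at 5.42, 3.65, 3.68 and 4.08 RPKM after hydrolysis and at 1.74, 4.48, 2.11 and 2.40 RPKM after shearing. Its groups overlapped through the sheared CCE2 library of Vienna-IMP, and the log2 difference of 0.77 had an adjusted p of 0.0703 (limma). Igf2r had a log2 difference of 0.10. As tags carry no strand, Airn and Igf2r tags in the region they share cannot be told apart.

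Long intergenic non-coding genes had calls in both directions. Of 195 tested 39 were higher (20.0%) and 33 lower (16.9%), beside 18.7 and 13.4% of the genes tested, with a median of 0.10. Relative to the genes tested this median was -0.20 with at least 50 tags and 0.24 with exon bases of 1 gene only. Their share of exon tags differed by 0.0682 percentage points with overlap. With positions counted once it differed by 0.0996, at the smallest exact permutation p of 0.0286 (adjusted p = 0.048). Processed transcripts had a median of -0.21, with 16 of 137 higher and 27 lower. Relative to the genes tested it was -0.31, and -0.027 with at least 50 tags, -0.064 with exon bases of 1 gene only and -0.41 at Nijmegen. Their summed share of exon tags ran the other way, at 0.777 ± 0.0747% after hydrolysis and 0.589 ± 0.0220% after shearing (SD, n = 4), without overlap (exact permutation p = 0.0286, adjusted p = 0.059). Pseudogenes had a median of 0.12, with 36 of 225 higher and 33 lower. Of 10 miscellaneous RNAs and 11 miRNA genes none was higher, and 2 and 1 were lower. The lincRNA gene 9930014A18Rik fell by 1.53 and the processed transcript BC042782 by 2.17 on the log2 scale. The lincRNA gene 2900053A13Rik was higher by 2.12, but only 26.2% of its exon bases belong to no other gene.

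Introns held a greater share of the tags after hydrolysis. The share of unique tags in introns was 20.0, 15.8, 16.0 and 21.8% in the hydrolysed libraries and 11.1, 13.8, 11.3 and 12.7% in the sheared libraries, again in the order CCE1 and CCE2 of Vienna-IMP and CCE1 and CCE2 of Nijmegen. The groups did not overlap, with means of 18.4 ± 2.96% and 12.2 ± 1.24% (SD, n = 4) and an exact permutation p of 0.0286, which is 0.059 after adjustment over 31 library measures. On the mean per cDNA, 2 against 2, p was 0.333. The exon share was 70.3 ± 2.90% and 72.8 ± 1.53% and overlapped. With positions counted once it differed by -9.66 percentage points and the intron share by 8.60, each at the smallest exact permutation p of 0.0286. This is 0.048 after adjustment there, as more measures reach that p. Tags outside genes made up 11.3 ± 0.499% after hydrolysis and 14.9 ± 1.30% after shearing. Without the 9 windows of 1 kb that each held at least 0.25% of the pooled tags, this last difference turned from -3.69 to 0.83 percentage points. In FH the intron share was 31.96 to 38.5% in the 4 hydrolysed and 20.5 and 24.6% in the sheared libraries.

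Gene by gene, 2881 of 6337 genes with a mean of at least 10 intron tags per library had more intron tags after hydrolysis (45.5%) and 27 had fewer (0.426%), with a median log2 difference of 0.72. With the total of intron tags as library size the median was 0.13, and 43 genes were higher and 125 lower, with 1263 at an unadjusted p under 0.05 (limma). The median fell with the GC content of the introns, from 1.01 below 40% GC and 0.85 from 40 to 45% to 0.57 from 45 to 50% and 0.22 above 50%. Within Vienna-IMP 2 genes were called and within Nijmegen 1, with 1817 and 1919 at an unadjusted p under 0.05 (limma). With 1 library left out the count higher was 1209 to 3281, lowest without the sheared CCE1 library of Vienna-IMP.

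For 5795 genes the change of intron tags was set against that of exon tags in a single model. Intron tags rose more than exon tags for 1081 genes (18.7%) and less for 27 (0.466%), with a median difference of 0.55 on the log2 scale. The first count fell to 428 without the hydrolysed CCE2 library of Nijmegen, to 565 without the hydrolysed CCE1 library of Vienna-IMP, and to 575, 639 and 637 without the sheared libraries CCE1 of Vienna-IMP, CCE1 of Nijmegen and CCE2 of Nijmegen. It was 1 within Vienna-IMP and 37 within Nijmegen, with 833 and 1296 genes in this direction at an unadjusted p under 0.05 (limma). When intron and exon tags were each scaled to their own totals, 61 genes were called in the first direction and 189 in the other, with a median of -0.10. The median difference was 0.20 for genes with exons under 40% GC and 0.85 for genes with exons over 55% GC, whose exon tags were lower while their intron tags were higher by a median of 0.35.

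Tln1, the cytoskeletal linker talin, shows both sides. Its introns were at 3.10, 2.32, 1.60 and 2.27 RPKM after hydrolysis and 1.07, 1.43, 1.11 and 0.905 RPKM after shearing, and its exons at 63.0 to 88.9 and 131.1 to 175.8 RPKM. Intron and exon levels moved in opposite directions without overlap between the groups, with log2 differences of 1.02 and -1.003 and a difference between them of 2.04 ± 0.27 (SE, limma, adjusted p = 0.000216). Pkdcc, a secreted kinase, had the same pattern, with an intron minus exon difference of 2.10. Zfp865 had a difference of 2.36, with exon levels that did not overlap and intron levels that did. Eef1a1, the elongation factor that delivers tRNA, had the opposite one. Its intron level was 2.02 to 3.37 RPKM after hydrolysis and 5.05 to 8.75 RPKM after shearing, and its intron minus exon difference was -2.20 ± 0.30 (SE, limma, adjusted p = 0.000246). Eef1a1 has processed copies elsewhere in the genome, so unique tags sample its exons in part. Over the introns of Airn and Igf2r the log2 differences were 0.77 and 0.65, each with an adjusted p of 0.049 (limma). These lie near the median of 0.72 over the genes tested for introns, and the groups overlapped for both genes.

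Within transcripts, tags were placed on the main coding transcript of 4832 genes, and densities were set relative to the mean of the transcript. Coding regions had a relative density of 1.37 ± 0.017 after hydrolysis and 1.48 ± 0.0198 after shearing, and 3′ UTRs of 0.702 ± 0.017 and 0.516 ± 0.027 (SD, n = 4). Neither measure overlapped between the groups (exact permutation p = 0.0286, adjusted p = 0.059). The last 500 nt were at 0.605 ± 0.020 and 0.426 ± 0.023. In the last 100 nt of 2695 transcripts of at least 3 kb the density was 0.261 to 0.316 after hydrolysis and 0.104 to 0.129 after shearing. The 5′ UTRs, at 0.877 ± 0.155 and 1.11 ± 0.195, and the first 200 nt, at 0.930 ± 0.093 and 1.16 ± 0.156, overlapped between the groups over both locations, but within each location both hydrolysed libraries were below both sheared libraries in either measure.

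**Figure D3:**
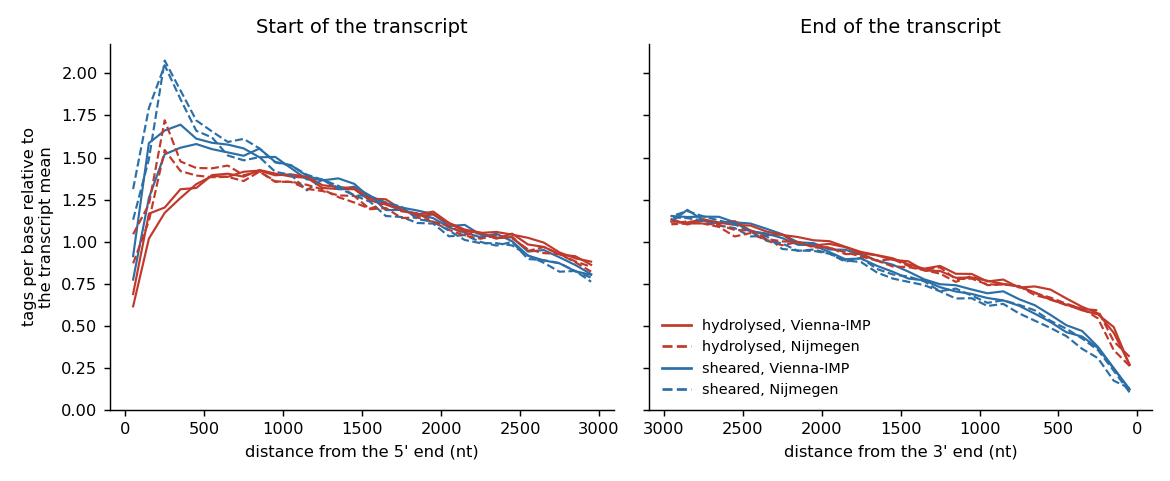
Relative tag density by distance in nt from the 5′ end and from the 3′ end of transcripts of at least 3 kb, with 1 line per CCE library. In the last 100 nt the hydrolysed lines lie at 0.261 to 0.316 and the sheared lines at 0.104 to 0.129.

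Tag density inside transcripts varied with the GC content of the windows, and other properties of the windows were not separated from it. Coding windows of 100 nt with under 35% GC had a relative density of 0.576 ± 0.0497 after hydrolysis and 0.432 ± 0.0476 after shearing, those with 50 to 55% GC 1.31 and 1.29, and those with over 65% GC 1.23 ± 0.105 and 1.94 ± 0.128 (SD, n = 4). From 50% GC upward the sheared density rose from bin to bin in 3 of the 4 libraries, and in CCE1 of Vienna-IMP it was 1.76 from 60 to 65% GC and 1.75 above. After hydrolysis the Nijmegen libraries stayed between 1.28 and 1.31 from 50% GC upward. The hydrolysed Vienna-IMP libraries CCE1 and CCE2 reached 1.51 and 1.42 from 60 to 65% GC and were at 1.25 and 1.08 above. In 3′ UTR windows with under 35% GC the density was 0.264 ± 0.0166 and 0.167 ± 0.0244. The 3′ UTR densities did not overlap between the groups in any bin up to 50 to 55% GC, where they were 0.960 and 0.795, and overlapped from 55 to 60% GC, where they were 1.09 and 1.02, and from 60 to 65% GC. Over 65% GC they were again apart, in the opposite direction, with 1.05 to 1.28 after hydrolysis and 1.32 to 1.51 after shearing. Over 149224 inner windows the ratio of density above 60% GC to that below 40% GC was 3.07, 2.56, 2.69 and 2.55 in the hydrolysed and 4.34, 5.48, 5.59 and 5.88 in the sheared libraries. The GC content of the tags themselves was 54.4 ± 0.517% and 59.4 ± 0.464%. Genes with over 55% GC drew 26.6 ± 1.65% of the protein-coding exon tags after hydrolysis and 36.96 ± 1.36% after shearing. None of these ratios and shares overlapped between the groups (exact permutation p = 0.0286 for each, adjusted p = 0.059).

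**Figure D4:**
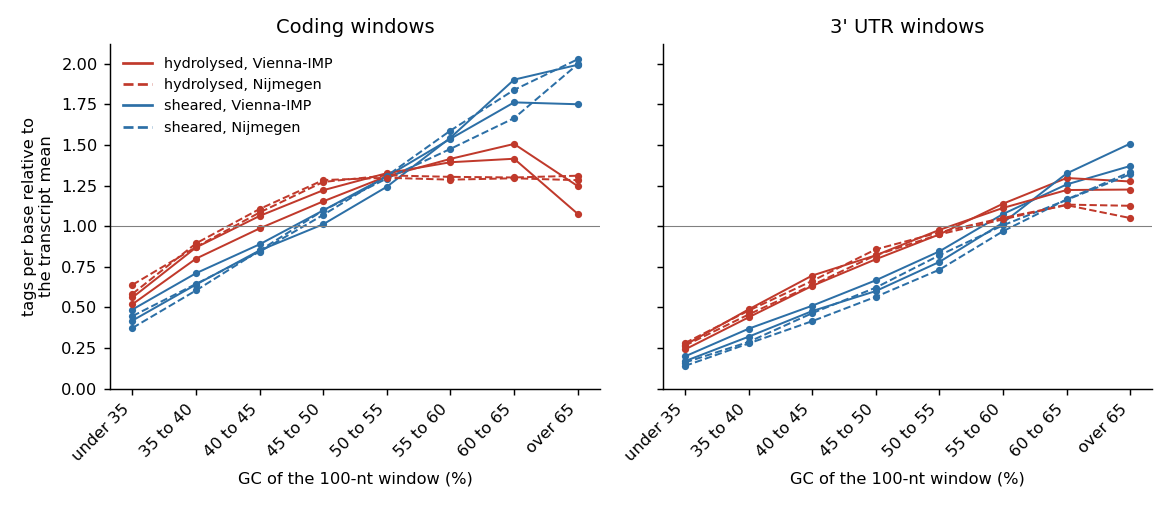
Relative tag density against the GC content of 100-nt windows in coding regions and in 3′ UTRs, with 1 line per CCE library. In coding windows over 65% GC the sheared libraries average 1.94 and the hydrolysed libraries 1.23.

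Base composition at the start of the fragments differed between the methods. With each start position counted once, G was the first base of 44.3% of the fragments after hydrolysis and of 32.1% after shearing, A of 13.04% and 21.8%, and T of 10.9% and 16.5%. With all tags counted, the divergence of base composition over the first 13 positions from that of positions 20 to 32, in bits, was 0.599, 0.651, 0.546 and 0.568 in the hydrolysed and 0.151, 0.148, 0.065 and 0.110 in the sheared libraries. The lowest hydrolysed value was above the highest sheared value (exact permutation p = 0.0286, adjusted p = 0.059 over 31 measures). In FH it was 0.533 to 0.687 and 0.085 to 0.116. With start positions counted once the CCE values were 0.436 to 0.529 and 0.0352 to 0.0995 bits.

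**Figure D5:**
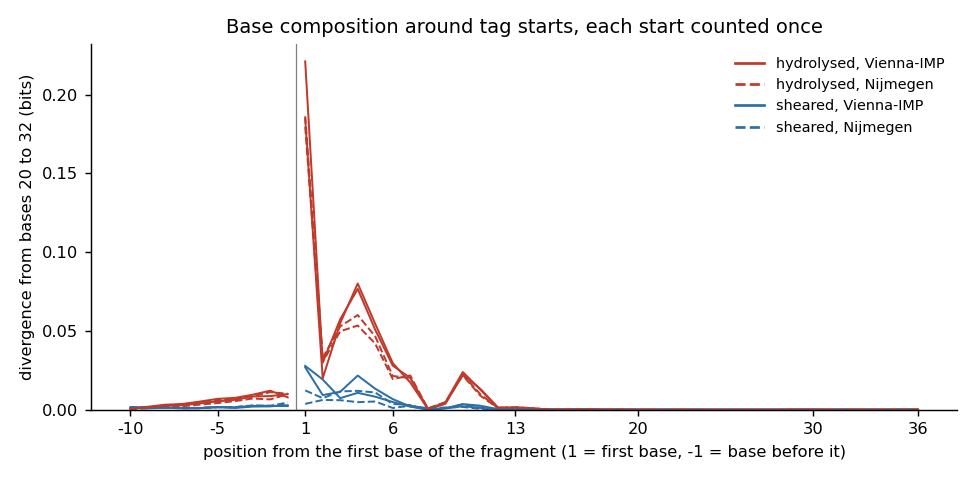
Divergence in bits of the base composition at each position from that inside the fragment, by position relative to the fragment start, with start positions counted once and 1 line per CCE library. The hydrolysed libraries sum to 0.436 to 0.529 bits over the first 13 positions and the sheared libraries to 0.0352 to 0.0995 bits.

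With start positions counted once, runs of G led the hexamers at fragment starts in both methods. The ratio of a hexamer's share at the first 6 bases to its share at bases 25 to 30 was 10.6 for GGGGGA, 10.3 for GGGGGG and 8.34 for GGGGAA after hydrolysis, and 4.95, 4.24 and 3.77 after shearing. GGGGAA and GGGGGA are the hexamers at the most used starts of Hist1h3i and Hist2h3b printed above. At the other end TTATCT had a ratio of 0.050 after hydrolysis, with 0.0276 to 0.0872 in single libraries, and of 0.586 after shearing. Of 3453 hexamers 354 were at least 2 times and 1266 at most 0.5 times as frequent at the start after hydrolysis, and 59 and 68 after shearing. Across hexamers the log2 ratios of the methods had a Pearson r of 0.731, as a description. With all tags counted other hexamers led, with ratios of 35.6 for CCGGGA and 35.5 for GGCGGA after hydrolysis and of 16.97 and 24.2 after shearing. The counts among 3282 hexamers were then 357 and 1307 after hydrolysis and 141 and 209 after shearing.

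The FH libraries, which share no library with the CCE comparison, had the same order of GC bins. Among 9725 genes tested in both, 771 (7.93%) were higher and 856 (8.8%) lower after hydrolysis in FH. Without the hydrolysed FH libraries of 2 rounds of depletion, which have no sheared counterpart, 184 were higher and 279 lower. The sheared libraries of either fit come from a single preparation, as do the hydrolysed libraries of the second fit. From the lowest to the highest bin of exon GC content the FH medians were 0.90, 0.71, 0.34, -0.09 and -0.61 on the log2 scale, beside 0.85, 0.65, 0.32, -0.06 and -0.51 for the same genes in CCE. The sign was shared by 84.6% of the genes, by 98.0% of the 3223 called in CCE and by each of the 1237 called in both. A test of the difference between the CCE and FH effects called 0% of the genes (limma interaction, 311 at an unadjusted p under 0.05). With 2 sheared FH libraries of a single preparation, this does not show that the effects were equal. Shfm1 was higher by 2.98 and Hist1h3i fell by 3.08 in FH, and Sox17 fell by 0.81.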

How the data were processed

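RiboMinus RNA of differentiated CCE cells was sequenced without strand in 8 libraries, 4 hydrolysed and 4 sheared. The authors removed ribosomal and mitochondrial tags, aligned with Bowtie to mm9 with up to 2 mismatches and kept tags with a single place. Each line they deposited is such a tag with its coordinates, so that counts of tags here are counts of deposited lines. Splice junctions were not aligned. No column of the authors' comparisons was used. Tags are 36 nt at Vienna-IMP and 35 nt at Nijmegen, where the base composition places the fragment start 1 base outside the listed tag.

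Midpoints were counted in merged exons, or in introns free of exons, of GENCODE M1 genes. Genes with a mean of at least 10 tags were fitted with limma 3.58.1 (voom weights, R 4.3.3), with terms for method and location and all unique tags as library size. Calls have a Benjamini-Hochberg adjusted p under 0.05. Simulated counts of the 10766 genes gave back 59 of 100 genes changed 2-fold and 96 of 100 changed 4-fold, and 5 unchanged genes were called. The simulated libraries were independent, without effects of preparation, cDNA or location. These counts are therefore not error rates of the fit to the measured libraries. For library measures exact permutation tests, two-sided, were used. RPKM values and shares are levels of single libraries without an error of their own, and SDs give the spread between libraries. Figures and counts used Python 3.11.15, numpy 2.4.6, pandas 2.3.3 and matplotlib 3.10.9.

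The members and gene lists were chosen with earlier results of these data known. Named genes are the 8 protein-coding and 5 other genes with the largest called difference in each direction among those with a mean of at least 30 tags and no overlap between the groups, the 3 members with the highest level and the most changed called members of each list, and Airn, Igf2r and Pou5f1. For introns they are the 5 genes with the largest called difference from exons in each direction. Jun, Fos, Gata6, Foxa2, Krt8, Sparc, Cubn, Ndufa1, Gas5, Snhg5, Neat1, Mir17hg, Mirg and Meg3 were chosen after their values were seen. Kcnq1ot1 and the list of structural small RNAs had no match by symbol and were not analysed here.

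The preparation numbers pair the libraries as labelled, since the study describes both methods as applied to the same RiboMinus samples. For the hydrolysed Vienna-IMP libraries the numbers may be exchanged. Across 6402 genes the log2 ratios of preparation 1 to 2 of the hydrolysed Vienna-IMP libraries had r of -0.703 to -0.680 with those of the other 3 pairs of libraries. Alternatives were other library sizes, filters, models, locations, repeated positions counted once, and each library left out.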

Additional observations from a re-analysis of the deposited data

Results flagged for a closer look

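In 9 of 266 groups of 4 libraries that were looked at, 1 library lay far from the other 3, as judged by its gap to the nearest of them over the range of the group, which chance gives in about 1 of 20 groups. Of the tags of the sheared CCE1 library of Vienna-IMP 29.4% repeated a position, against 23.0 to 23.3% in the other sheared libraries. The hydrolysed CCE1 library of Nijmegen had a relative density of 0.575 in the last 500 nt of transcripts, against 0.613 to 0.616. Among gene levels, Snord15a was at 304.5 RPKM in the sheared CCE2 library of Vienna-IMP, against 14.5 to 56.1 RPKM in the other sheared libraries, and Malat1 in that library was at 118.9 RPKM against 93.9 to 94.8 RPKM. The sheared CCE1 library of Nijmegen had Eif2s3x at 3.97 RPKM, against 1.80 to 2.07 RPKM, and the introns of Ulk4 at 0.0307 RPKM, against 0.0538 to 0.0581 RPKM. In the hydrolysed CCE2 library of Vienna-IMP Col14a1, a fibril-associated collagen, was at 3.44 RPKM against 2.98 to 3.01 RPKM. Hnrnpc, an RNA-binding protein, was at 6.05 RPKM there against 2.57 to 3.01 RPKM. Cilp2 was at 2.18 RPKM in the hydrolysed CCE2 library of Nijmegen, against 2.55 to 2.62 RPKM.

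Several windows of 1 kb without an annotated exon held many tags. The window from 108873001 to 108874000 on chromosome 11 held 5.17% of the pooled CCE tags, with 3.51 to 4.95% in hydrolysed and 5.42 to 7.88% in sheared libraries. The window from 15519001 to 15520000 on chromosome 8 held 1.81%, and its groups overlapped (1.51 to 2.50% and 0.951 to 2.31%). On chromosome 17 the adjacent windows that begin at 39980001, 39981001, 39982001 and 39983001 held 0.378, 1.02, 0.457 and 0.920% of the tags. Each of these 4 windows took a smaller share in every hydrolysed library than in every sheared library, with 0.167 to 0.738% against 1.28 to 2.17% in the second. No control without RNA was analysed here, so the level is set against 0.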

How the results depend on the processing

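The preparations are technical replicates, lists of unique tags hold no reads of repeats or near-identical copies, and 1058045 to 2473448 tags per library limit single libraries to abundant genes. The exact test of 4 against 4 cannot go below 0.0286, which is 0.059 after adjustment over 31 measures. Within 1 location it cannot go below 0.333, and limma then estimates the spread from 4 libraries.

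With the preparation number as a replicate block 1901 genes were higher and 1438 lower. It gave 2759 and 24 genes for introns and 994 and 22 for introns against exons, turned no median or library measure, and made 2 more named genes called. With the numbers of the hydrolysed Vienna-IMP libraries crossed, chosen after seeing the data, the block gave 3293 and 2437 genes for exons and 4101 and 54 for introns. With cDNA as a random effect and the numbers crossed, 915 and 765 genes were called, with the crossed block in addition 3955 and 2936, and with the locations summed per crossed cDNA 0 and 0 (3295 at an unadjusted p under 0.05, limma). Vienna-IMP alone gave 0 and 0 for exons, 0 and 2 for introns and 1 and 1 for introns against exons. Nijmegen alone gave 529 and 560, 0 and 1, and 37 and 0.

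With a mean of at least 50 tags 1099 of 5488 genes were higher and 1015 lower. With at least 30 intron tags 1337 and 11 of 2290 genes were called for introns and 635 and 17 for introns against exons. With intron tags as library size these were 43 and 125, and 61 and 189. With positions counted once introns rose less than exons for 14 genes, exon calls were 1562 higher and 1834 lower, and 18 called genes changed sign.

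Leaving out each library in turn gave 1159 to 1889 genes higher and 865 to 1302 lower for exons, 1209 to 3281 and 16 to 23 for introns, and 428 to 1104 and 8 to 22 for introns against exons. The lowest exon counts came without the sheared and without the hydrolysed CCE2 library of Nijmegen, with 1159 higher and 865 lower. Without the hydrolysed CCE1 library of Vienna-IMP, the hydrolysed CCE2 library of Nijmegen or any of the sheared libraries other than CCE2 of Vienna-IMP, higher calls were 1209 to 1827 for introns and 428 to 639 for introns against exons.

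Medians less that of the genes tested moved by more than the spread of the pairs for lincRNA (-0.20 with at least 50 tags, 0.24 with exon bases of 1 gene), processed transcripts (-0.027 with at least 50 tags, -0.41 at Nijmegen, -0.064 with exon bases of 1 gene), protein-coding genes (-0.0103 with at least 1 tag, -0.00413 with exon bases of 1 gene), small nucleolar RNAs (0.52 at Nijmegen, 0.59 with positions counted once) and genes of 50 to 55% GC (-0.10 with at least 50 tags).

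The direction turned for these named genes. With positions counted once the log2 differences were -0.32 for Hist2h2bb, -0.16 for Cox8a, -0.021 for Itgb1, -0.52 for Scarna2, -0.60 for Tagln, -0.63 for Acta2, -0.30 for Eif3k, -0.0175 for Hnrnpab and -0.12 for Igf2r, and those of Scarna2, Tagln and Acta2 were called in the turned direction. At Nijmegen alone they were -0.58 for Snord15a and -0.0158 for Igf2r, and at Vienna-IMP alone 0.20 for Krt18. Tagln was at -0.00101 with a median-of-ratios library size. With each library left out Tagln ranged from -0.00852 to 0.21, below 0 without sheared replicate 2 and without hydrolysed replicate 3, and Hist1h4d from -0.48 to 0.19, above 0 without sheared replicate 1. Of 61 called named genes, 3 changed sign in 1 of these ways, and in 223 of 1503 alternatives in all a called gene was no longer called.

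Among library measures the share outside genes differed by 1.06 percentage points with positions counted once and by 0.830 without the busiest windows, and the protein-coding share by -0.384, -0.469 and, at Nijmegen, -0.609. The share of repeated positions differed by -1.52 at Vienna-IMP and by -0.041 to 2.18 with each library left out, lowest without hydrolysed replicate 3. The miRNA share differed by 0.197 at Nijmegen. Counting positions once let 18 measures pass the threshold (adjusted p = 0.048, exact permutation test), among them the shares outside genes and of protein-coding genes with their direction turned. Each of them is at the smallest exact p of 0.0286. The adjusted p of 0.048, against 0.059 with all tags, follows from the number of measures at that p and adds no evidence for a single measure. In percentage points the other differences were -9.66 for exon tags, 8.60 for intron tags, -4.57 for tag GC, 0.0996 for lincRNA, 0.00254 for other classes, 0.126 for processed transcripts, and 1.31, 5.71, 4.88, -1.43 and -10.5 for the bins of exon GC content from lowest to highest. Relative densities differed by -0.130 in coding regions, 0.192 in 3′ UTRs and 0.184 in the last 500 nt, the window ratio by -2.59 and the start divergence by 0.405 bits. The cause of these changes was not tested.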

Other observations

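The Zfp family of zinc finger genes, mostly DNA-binding repressors, had shares of calls near those of all genes. Of 200 tested, 43 were higher (21.5%) and 37 lower (18.5%) after hydrolysis, beside 18.7 and 13.4% of the genes tested, with a median log2 difference of 0.17 and a median exon GC content of 48.3%. Relative to the median of their GC bin the median was -0.098. Without the hydrolysed CCE2 library of Vienna-IMP 28 were higher, and without the sheared CCE2 library of Nijmegen 20. Zfp58, with 42.9% GC, was higher by 1.59, while Zfp358, Zfp219 and Zfp516, with 60.4, 61.4 and 53.8% GC, fell by 1.25, 1.04 and 0.59 on the log2 scale. Their groups of libraries did not overlap.

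Several abundant structural and secretory genes were not called, whereas Sparc and Col4a2 were. Tagln was at 1127 to 1867 RPKM after hydrolysis and 1038 to 1528 RPKM after shearing, and Acta2 at 811 to 1185 and 744 to 884 RPKM, and both were called lower with positions counted once. Plat, tissue plasminogen activator, was at 134.2 to 172.2 and 149.7 to 166.6 RPKM, with a log2 difference of -0.09. Col4a1, the partner chain of Col4a2, had a mean of 42.6 ± 5.55 RPKM after shearing and of 34.1 ± 1.79 RPKM after hydrolysis (SD, n = 4), a log2 difference of -0.31 that was not called (limma, adjusted p = 0.116) although its groups did not overlap.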
